A study of Rattus norvegicus with 49 samples.

Results

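The genes described here encode the constitutive subunits of the proteasome, the protease that degrades ubiquitin-tagged proteins. They were chosen by name: every gene whose symbol in the array's annotation begins with Psma, Psmb, Psmc or Psmd, without the immunoproteasome genes Psmb8, Psmb9 and Psmb10, and with a signal of at least 100 on 5 or more arrays. The rule found 31 of the 8093 genes tested, and all 31 reached that signal on every array. They comprised 7 genes of the 20S α ring, 6 of the 20S β ring, 5 ATPases of the 19S particle and 12 further Psmd genes. The remaining gene, Psmc3ip, was taken in by the spelling of its name alone. It encodes a recombination factor that binds Psmc3 and is no subunit, and it is given separately. The other 30 are called subunit genes below, although Psmd5, Psmd9 and Psmd10 among them encode chaperones that help assemble the 19S particle.

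The tissue was the CA1 field, dissected from the left hippocampus. Each Fisher 344 rat gave RNA for its own Affymetrix RAE 230A array. There were 9 animals each of 3, 6, 9 and 12 months and 13 of 23 months, 49 in all, and all had completed water-maze training and a probe trial before dissection. The series' design text is not uniform on the age of the oldest group, and the 23 months of the sample labels were used. The labels name no treatment, genotype or sex, so the groups differ in age alone as far as the labels say, and 2 aged animals had been removed for poor health. In such tissue a lower share of cells of a type and less RNA per cell cannot be told apart.

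The proteasome is built from a barrel and a cap. In the 20S barrel, outer rings of α subunits guard the entry and inner rings of β subunits surround the cavity, where the β subunits Psmb5, Psmb6 and Psmb7 carry the active sites. In the 19S cap, a ring of ATPases (Psmc) unfolds the substrate, while some of the Psmd subunits bind or remove ubiquitin. In immune cells and after interferon, Psmb8, Psmb9 and Psmb10 replace Psmb5, Psmb6 and Psmb7 and form the immunoproteasome, which favours peptides for MHC class I. In neurons the proteasome turns over synaptic proteins, and a loss of its activity in the aged brain is a long-standing topic of research. The transcription factor gene Nfe2l1 is known to drive the subunit genes together through antioxidant response elements.

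Promoters of 3 genes are shown because Psmd8 was the only subunit gene called with age below, and because Psmb5 and Psmc2 were the pair that varied together most closely between animals. Each run is the 250 bases before the RefSeq start of the gene in build GRCr8, read 5′ to 3′ along the gene. All 3 genes lie on the minus strand, at chr1:93608690-93608939 for Psmd8, chr15:32047380-32047629 for Psmb5 and chr4:14162391-14162640 for Psmc2. Capitals mark matches to the motifs searched.
Psmd8: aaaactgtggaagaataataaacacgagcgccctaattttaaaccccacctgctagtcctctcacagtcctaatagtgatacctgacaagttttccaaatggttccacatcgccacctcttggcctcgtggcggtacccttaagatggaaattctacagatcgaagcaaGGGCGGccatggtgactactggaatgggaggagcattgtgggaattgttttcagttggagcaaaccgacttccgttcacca
Psmb5: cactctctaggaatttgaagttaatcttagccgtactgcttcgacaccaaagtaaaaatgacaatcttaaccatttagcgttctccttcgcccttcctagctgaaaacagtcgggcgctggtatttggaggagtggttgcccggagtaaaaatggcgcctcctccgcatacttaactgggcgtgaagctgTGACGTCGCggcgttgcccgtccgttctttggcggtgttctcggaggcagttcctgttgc
Psmc2: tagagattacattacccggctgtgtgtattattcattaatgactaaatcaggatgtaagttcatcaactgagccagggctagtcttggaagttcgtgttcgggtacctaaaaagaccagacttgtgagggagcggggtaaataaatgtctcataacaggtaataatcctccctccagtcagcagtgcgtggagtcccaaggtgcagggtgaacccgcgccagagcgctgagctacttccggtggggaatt

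The capitals in Psmb5 are an antioxidant response element core, TGACNNNGC, whose first base lies at −60 from the start. Those in Psmd8 are a GC box, GGGCGG, at −81, and the window of Psmc2 held no match. Motifs were searched on both strands over 250 bases before and 50 after the start, in the promoters of the 28 subunit genes matched in the RefSeq table, which left out Psma7 and Psmd6. The antioxidant response element core was found in 6 of 28 (21.4%), against 12.1% of all 33469 promoters in the table. The 6 genes were Psma3, Psmb2, Psmb5, Psmd1, Psmd3 and Psmd9. The CCAAT box (CCAAT) was found in 16 of 28 (57.1%, against 37.5% of all), the GC box in 19 of 28 (67.9%, against 33.1%) and the TATA box (TATAAA) in 4 of 28 (14.3%, against 14.2%). A match is a stretch of letters and not a measured binding site.

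The values are microarray signals on a linear scale, and tests were made on their log2 values. On 5 arrays the signal of transthyretin, a gene abundant in choroid plexus, was 3908 to 16310, against at most 1123 on the other 44. These arrays were 3 months replicates 4, 6, 7 and 8 and 23 months replicate 11. Of the 4 CA1 pyramidal markers tested, Wfs1, Dkk3 and Fibcd1 did not pass at 23 against 3 months and Pou3f1 was lower. The summed signal of the 4 was 8575 to 10411 at 3 months and 7517 to 9948 at 23 months. None of the 31 cell type markers tested had a signal of 0 on any array. Of all genes tested, 2.41% were called higher and 0.853% lower in that contrast. The microglial markers (Aif1, Csf1r, C1qa, C1qb, Ctss and Cd53) were higher in 6 of 6, with a summed signal of 5785 to 7070 at 3 months and 7722 to 12868 at 23 months. Of 5 astrocyte markers (summed signal 22528 to 27293 and 25330 to 31964), Gfap and Slc1a3 were higher, and of 5 neuronal markers Stmn2 was lower. The summed signal of the neuronal markers was 25614 to 29060 at 3 months and 23835 to 30143 at 23 months. Among 4 oligodendrocyte, 2 dentate, 4 choroid plexus and 1 blood marker tested, 0 were called. The part of these cell types in the results below was not tested.

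The first question was whether any subunit gene differed between the 5 ages. The subunit genes stayed close to their 3-month levels at every age, with shifts that were mostly smaller than the spread between animals. By the moderated F statistic of limma, 0 of 31 passed an adjusted p of 0.05, against 1.88% of all genes tested, and 1 gene, Psmd8, had an unadjusted p under 0.05 (3.23%, against 9.24% of all genes). At 23 against 3 months 0 of 31 were called, against 3.26% of all genes, and Psmd8 again had the only unadjusted p under 0.05, against 14.4%. At 12, 9 and 6 months, each set against 3 months, limma called 0 of 31, where 0.222%, 0.0371% and 0.0124% of all genes were called. At an unadjusted p under 0.05 these 3 contrasts also had 0 of 31, against 7.92%, 3.09% and 2.85% of all genes. Between 12 and 23 months 0 of 31 were called, against 0.358%, and 1 had an unadjusted p under 0.05, Psma4, against 8.22%. A plain analysis of variance of the 5 ages called 0 of 31 as well. Only a trend test, a line in months through all 49 animals, called a gene: 1 of 31 (3.23%), Psmd8, against 5.12% of all genes. In the falling direction alone 1.64% of all genes were called. Psmd8 was also the only member with an unadjusted p under 0.05 for the line, against 17.2% of all genes.

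**Figure D1:**
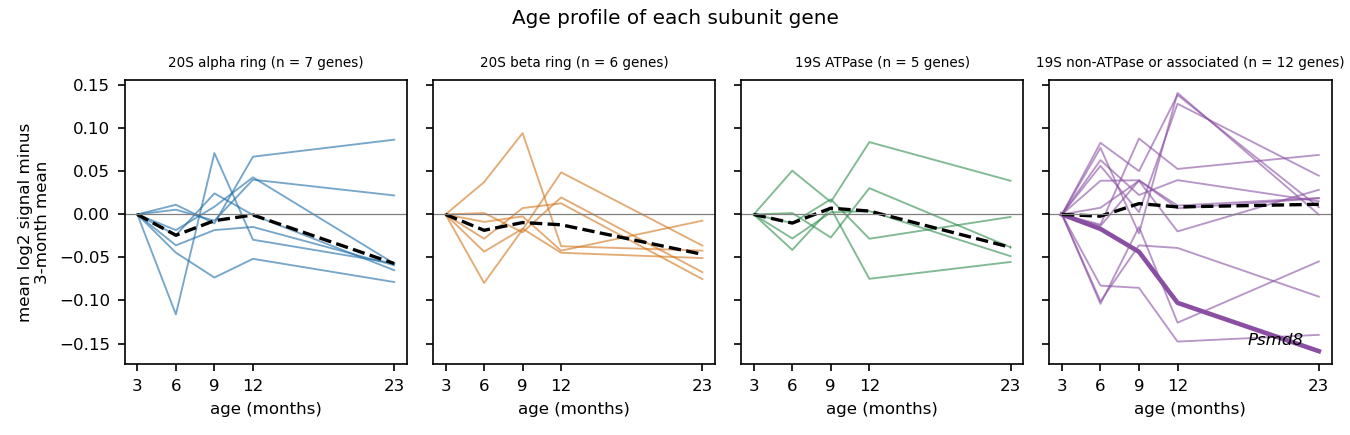
Mean log2 signal of each subunit gene at 3, 6, 9, 12 and 23 months (horizontal axis, months) minus its own 3-month mean (vertical axis, log2), in 4 panels by place in the complex, with the median of the panel as a dashed line. At 23 months the medians were −0.057 for the α ring, −0.046 for the β ring, −0.038 for the ATPases and 0.012 for the other Psmd genes, and Psmd8 (thick line) was lowest at −0.16.

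The median difference of the 31 genes from 3 months was −0.012 on the log2 scale at 6 months, 0.0026 at 9 months, 0.0039 at 12 months and −0.038 at 23 months, beside 9.2e-04, 6.7e-04, 0.0024 and 8.2e-04 over all genes tested. These 4 contrasts share the 3-month animals. At 23 months 20 of the 31 genes had a lower mean than at 3 months (64.5%), against 49.6% of all genes. The mean over the 30 subunit genes, each set against its own 3-month mean, was taken for each animal. It ranged from −0.051 to 0.070 at 3 months, from −0.069 to 0.037 at 6 months, from −0.043 to 0.034 at 9 months, from −0.041 to 0.045 at 12 months and from −0.10 to 0.028 at 23 months. The ranges of all 5 ages overlapped.

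The differences were small and also closely bounded. At 23 against 3 months the largest absolute difference among the 31 was 0.16, and 0 of 31 exceeded 0.2, against 11.1% of all genes. For 29 of 31 genes the whole 95% interval of the difference lay within a 1.2-fold change in either direction, against 59.0% of all genes. The exceptions were Psmd13, with an interval of −0.32 to 0.036, and Psmc3ip, with −0.15 to 0.34. The intervals are not adjusted for the number of genes. The SD between animals of one age had a median of 0.112 on the log2 scale over the 31 genes and of 0.181 over all genes. The subunit genes were bright, with median signals of 275 to 4002, where array medians over all probe sets were 208 to 224.9. These comparisons with all genes were not matched for signal, so the narrow spread cannot be read as particular to proteasome genes.

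**Figure D2:**
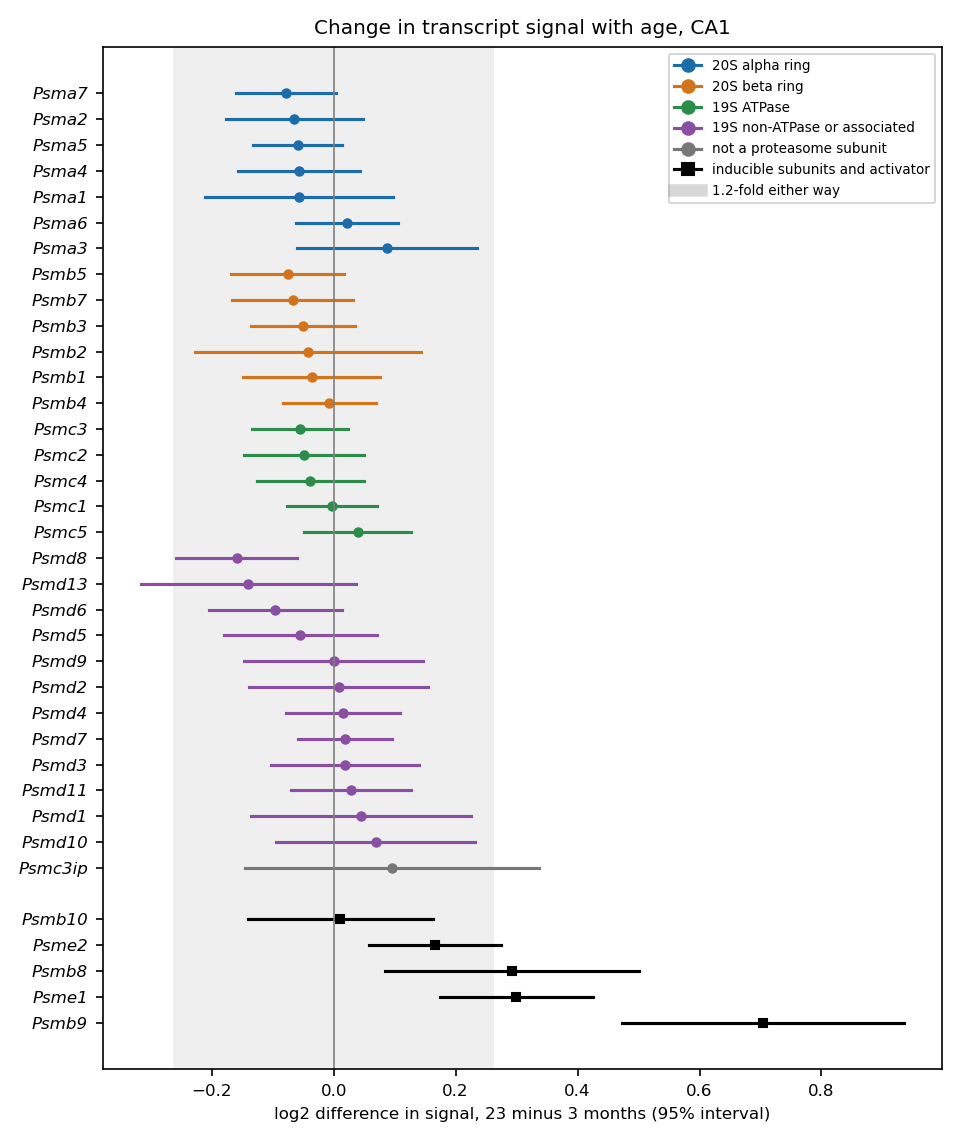
Difference in log2 signal at 23 minus 3 months (horizontal axis) with its 95% interval for the 31 genes, coloured by place in the complex, and below them for the 3 immunoproteasome genes and the activator genes Psme1 and Psme2 (black squares). The grey band spans 1.2-fold in either direction. Among the coloured points the intervals of Psmd13 and Psmc3ip leave the band and that of Psmd8 alone excludes 0, while the intervals of Psmb8, Psmb9, Psme1 and Psme2 lie above 0.

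In the α ring, which forms the gate of the barrel, 5 of 7 genes had lower means at 23 months and 0 of 7 were called. Of all genes tested, 49.6% had lower means and 3.26% were called. Psma7 stood at 2036, 2142 and 2366 at 3 months (lowest, median and highest signal of 9 animals) and at 1850, 1992 and 2400 at 23 months (13 animals). Of the 13 old animals 7 were below the lowest young one and 1 was above the highest. The log2 difference was −0.079 ± 0.041 (SE, adjusted p = 0.372 in limma), with 10 of 13 old animals below the 3-month mean. Psma5 stood at 1506, 1620 and 1737 at 3 months and at 1394, 1550 and 1731 at 23 months, with 4 of 13 old animals below the lowest young one and 0 above the highest. Its difference was −0.059 ± 0.036 (adjusted p = 0.490). Psma2, Psma4 and Psma1 differed by −0.065, −0.057 and −0.057, Psma6 by 0.022 and Psma3 by 0.087. The value of Psma3 fell to 0.0041 without the 5 arrays of high transthyretin signal, one of which, 3 months replicate 4, held its lowest signal of all.

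In the β ring 6 of 6 measured genes had lower means at 23 months, by 0.0073 to 0.075, and 0 of 6 were called. Over all genes tested these shares were 49.6% and 3.26%. The 6 genes were measured on the same animals, so they are not 6 independent results. Psmb5, which carries the chymotrypsin-like site, stood at 3464, 4007 and 4390 at 3 months (lowest, median and highest), at 3324, 3942 and 4477 at 6 months and at 3561, 4131 and 4634 at 9 months. At 12 months the same values were 3682, 4113 and 4417, and at 23 months 3279, 3830 and 4207. The oldest group had the lowest median, its range overlapped those of all other ages, and 1 of 13 old animals was below the lowest young one. The difference from 3 months was −0.075 ± 0.046 (adjusted p = 0.487), with 10 of 13 animals below the 3-month mean. Psmb7, which carries the trypsin-like site, stood at 3352, 3535 and 4021 at 3 months and at 2825, 3487 and 4064 at 23 months. Its difference was −0.067 ± 0.050 (adjusted p = 0.579), with 3 of 13 old animals below the lowest young one and 1 above the highest. Psmb3, Psmb2, Psmb1 and Psmb4, structural subunits without an active site, differed by −0.051, −0.042, −0.036 and −0.0073. The probe set annotated to Psmb6, the caspase-like subunit, carries a second symbol as well and was not analysed here.

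**Figure D3:**
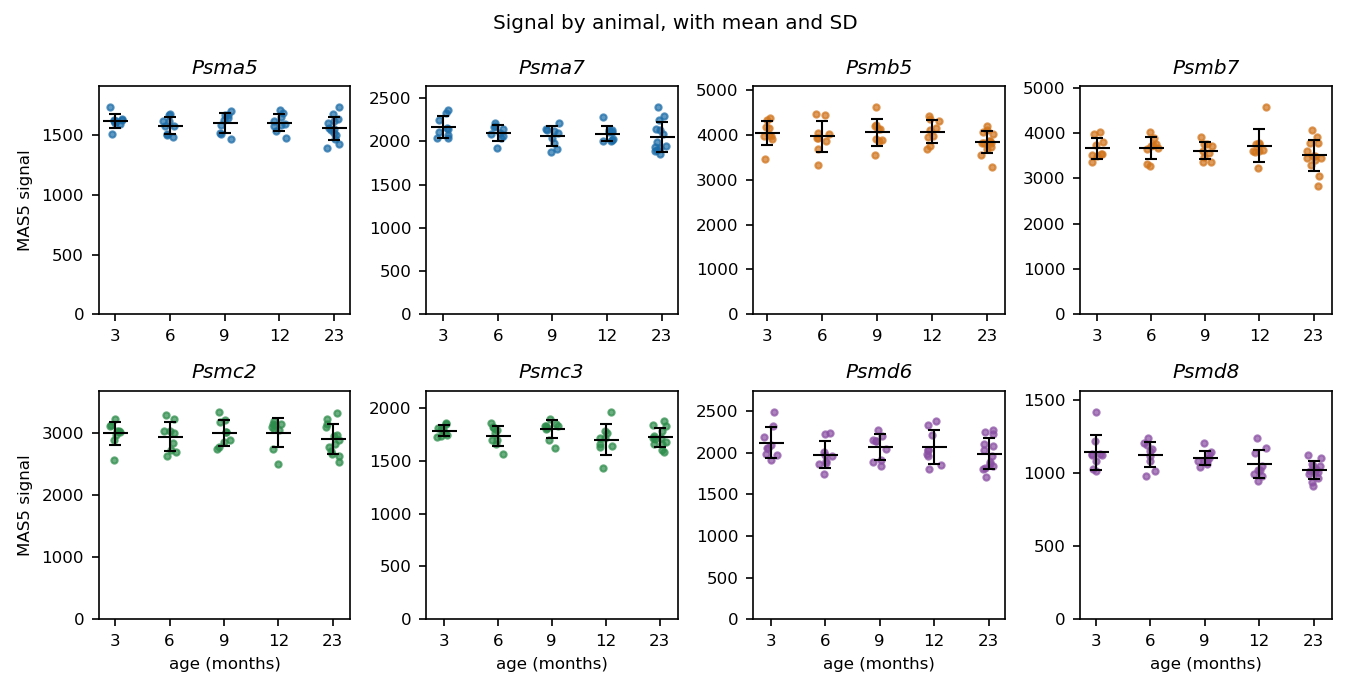
MAS5 signal (vertical axis, from 0) of 8 subunit genes in every animal by age in months (horizontal axis, ages evenly spaced), with the mean and SD of each age in black. The groups overlap in every panel, and in that of Psmd8 the mean falls from 1141 at 3 months to 1019 at 23 months.

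Of the 5 measured ATPases, the motors that unfold the substrate and open the gate, 4 had lower means at 23 months and 0 were called. The shares over all genes were again 49.6% and 3.26%. Psmc3 stood at 1722, 1799 and 1855 at 3 months and at 1579, 1713 and 1881 at 23 months. Its 3-month animals lay close together, and 8 of 13 old animals were below the lowest of them and 1 above the highest. The difference was −0.055 ± 0.039 (SE, adjusted p = 0.561), with 10 of 13 animals below the 3-month mean. Psmc2 stood at 2560, 3017 and 3222 at 3 months and at 2525, 2873 and 3318 at 23 months, a difference of −0.049 ± 0.049 (adjusted p = 0.720). Psmc4 and Psmc1 differed by −0.038 and −0.0029, and Psmc5 by 0.039.

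The 12 further Psmd genes fall into the scaffold and ubiquitin receptor of the cap's base (Psmd1, Psmd2 and Psmd4), its lid (Psmd3, Psmd6, Psmd7, Psmd8, Psmd11 and Psmd13) and chaperones that help assemble the base (Psmd5, Psmd9 and Psmd10). The genes of the base differed by 0.045, 0.0083 and 0.015 at 23 against 3 months and those of the chaperones by −0.055, −1.6e-04 and 0.069. In the lid Psmd3, Psmd7 and Psmd11 differed by 0.019, 0.019 and 0.029, and the second probe set of Psmd11 by 0.018. Psmd6, Psmd8 and Psmd13 differed by −0.096, −0.16 and −0.14, the 3 lowest values of the 31. Of the 12 genes 5 had lower means at 23 months and 0 were called in that contrast, against 49.6% and 3.26% of all genes.

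Psmd8, a lid subunit, was the only member called by the line in months. At 3 months its signal was 1016, 1030, 1079, 1121, 1122, 1127, 1131, 1222 and 1420 in the 9 animals. The last of these, replicate 2, stood above all other animals of the study. The lowest, median and highest signals were 978, 1152 and 1239 at 6 months, 1041, 1082 and 1204 at 9 months and 945, 1023 and 1239 at 12 months. At 23 months they were 909, 1011 and 1123. The mean fell at each step, from 1141 ± 121 (SD, n = 9) through 1125 ± 87.7, 1103 ± 49.7 and 1061 ± 98.8 to 1019 ± 60.2 (SD, n = 13). The mean at 3 months includes the high replicate 2, and the median rose from 1122 at 3 months to 1152 at 6 months. All 13 old animals were below the 3-month mean, and 7 of them were below the lowest 3-month animal, so that the groups overlapped.

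The slope of Psmd8 fell by 0.16 ± 0.043 (SE) on the log2 scale over 20 months (adjusted p = 0.012 in limma's trend test over all 8093 genes). At 23 against 3 months the difference was −0.16 ± 0.050, a fold of 0.896 with an interval of 0.836 to 0.960, and it did not pass (adjusted p = 0.061). The F-test did not call it (adjusted p = 0.263). The slope kept its call when any array was left out (adjusted p 0.0067 to 0.033), 3 months replicate 2 included (0.024). It lost the call when the replicate number of the labels was a block in the fit (−0.16 ± 0.050, adjusted p = 0.064). Numbers 10, 11, 13, 14 and 15 occur only at 23 months, so in that fit those animals carry no information on the slope. The lost call therefore does not show that arrays of a number share something. Without the 5 arrays of high transthyretin signal the adjusted p was 0.028. The contrast of 23 against 3 months turned to a call when 3 months replicate 5 or 8 or 23 months replicate 7 or 14 was left out (adjusted p = 0.035, 0.038, 0.040 and 0.049), and moved to 0.190 without 3 months replicate 2.

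Psmd6, another lid subunit, stood at 1912, 2062 and 2497 at 3 months and at 1711, 1963 and 2279 at 23 months, with 10 of 13 old animals below the 3-month mean and 6 below the lowest young animal. Its difference of −0.096 ± 0.054 did not pass (adjusted p = 0.434), and at 6 months its mean was already as low, at 1979 against 1989 at 23 months. Psmd13 ranged from 452 to 635 at 3 months and from 284 to 594 at 23 months. Its lowest animal, 23 months replicate 11, is one of those with high transthyretin signal, and without the 5 such arrays the difference was −0.061 in place of −0.14. Psmc3ip, no subunit, stood at 147, 209 and 254 at 3 months and at 165, 211 and 274 at 23 months, a difference of 0.096 ± 0.12 (adjusted p = 0.798).

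The next question was how far the subunit genes vary together between animals of one age. After the age means were taken away, pairs of genes were on the whole weakly related over the 49 animals. The median Pearson r of the 435 pairs of the 30 subunit genes was 0.064, with quartiles of −0.077 and 0.20, against a median of 0.0014 with quartiles of −0.13 and 0.13 over all pairs of tested genes. An r above 0.4 was found in 20 of 435 pairs (4.6%, against 1.78% of all pairs), and one below −0.4 in 5 (1.15%, against 1.61%). Among tested genes at least as bright as the dimmest subunit, 2.44% of pairs were above 0.4 and 2.19% below −0.4. Pairs within the β ring had a median of 0.17, within the α ring 0.12, among the other Psmd genes 0.041 and among the ATPases 0.020. These are descriptions without a test, and the arrays share their scaling and the make-up of each dissection.

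The closest pair was Psmb5 and Psmc2, a catalytic subunit and an ATPase (r = 0.65, Spearman's rho 0.62, and r = 0.62 without the 2 animals farthest from the median of Psmb5). Psmb5 also went with its fellow catalytic gene Psmb7 (r = 0.55) and with Psmd8 (r = 0.54). Its r with the mean of the other members was 0.61, the highest of the 31, followed by Psmc2 (0.48), Psma7 (0.44), Psmb4 (0.43) and Psmb7 (0.39). Some of the other high values leaned on few animals. The r of 0.59 between Psmb7 and Psmd2 came with 12 months replicate 5, which was highest of its age for both, and rho was 0.44. The r of 0.56 between Psmd8 and Psmd10 came with 3 months replicate 2, highest for both, and was 0.41 without the 2 animals farthest from the median of Psmd10. At the other end Psmb7 and Psmd3 had an r of −0.55. The genes least like the others were Psmd1 (r = −0.32 with the mean of the others), Psma3 (−0.27), Psmd3 (−0.23), Psma1 (−0.20) and Psmc3ip (−0.14).

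**Figure D4:**
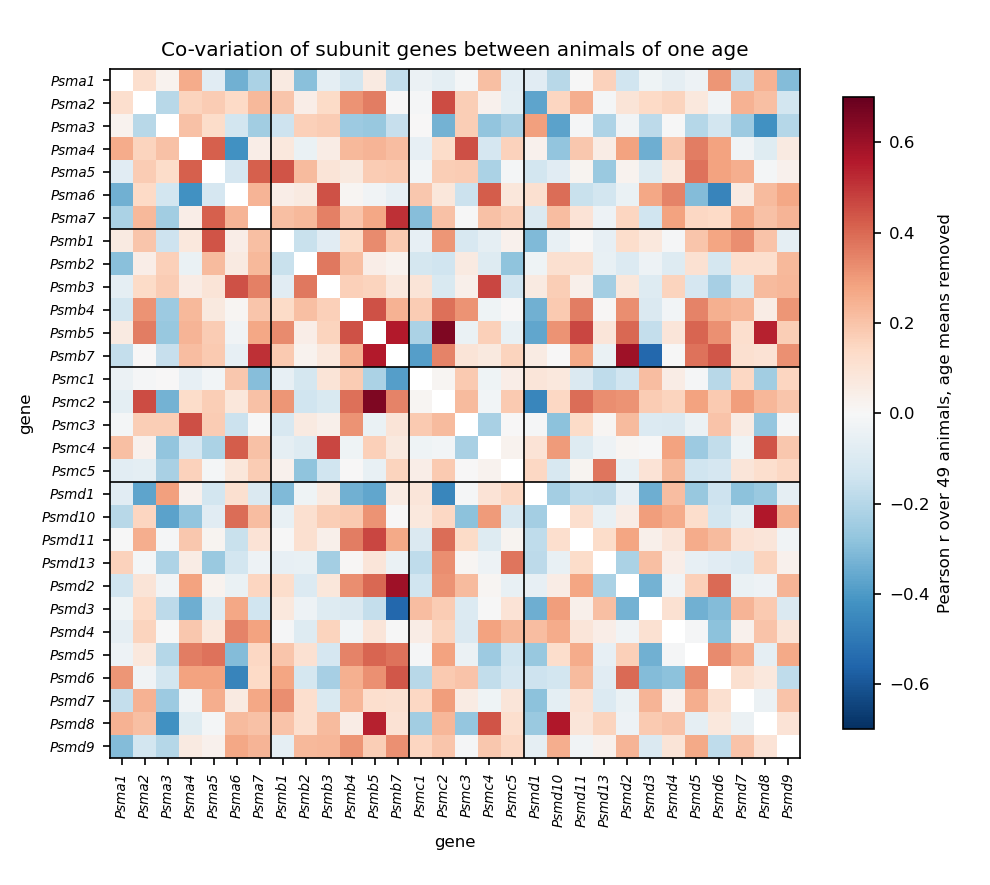
Pearson r between each pair of the 30 subunit genes over 49 animals after the age means were removed (colour, from blue below 0 to red above 0; black lines divide the α ring, β ring, ATPases and other Psmd genes). Most squares are pale, with a median r of 0.064, and the darkest red square off the diagonal is Psmb5 with Psmc2 at 0.65.

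Of the 3 inducible counterparts of the catalytic subunits, 1 was called at 23 against 3 months, against 3.26% of all genes. Psmb9, which replaces Psmb6, had signals of 55.1, 86.5 and 100.3 at 3 months (lowest, median and highest) and from 100 upward, with a median of 126 and a highest of 221, at 23 months, so that the groups barely touched. It rose 1.63-fold (adjusted p = 2.3e-05 in limma, higher than the 3-month mean in 13 of 13 old animals). At 3 months 8 of its 9 signals were under the filter signal of 100, at 23 months 0 of 13, so the gene entered the test mainly through the older animals. The test without the filter also called it in limma (adjusted p = 2.0e-05), and with signals under 64 raised to 64 the log2 difference was 0.68 in place of 0.70. Psmb8 stood at 82.2, 104 and 134 at 3 months and at 104, 125 and 182 at 23 months and was 1.22-fold higher without passing (adjusted p = 0.116), although its line in months passed in limma (adjusted p = 0.034). Of its signals, 4 of 9 at 3 months and 0 of 13 at 23 months were under 100. Psmb10 stood at 331, 396 and 468 and at 326, 402 and 513 (adjusted p = 0.977).

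Whether these genes changed by another amount than the constitutive ones was tested within animals, by the log2 ratio of the signals and exact two-sided permutation tests, adjusted over 4 pairs. The ratio of Psmb8 to Psmb5 was higher at 23 than at 3 months by 0.37 ± 0.13 (SE, exact permutation p = 0.0079, adjusted p = 0.010). It exceeded the 3-month mean in 13 of 13 old animals but the highest 3-month animal in only 4 of 13, so that the groups overlapped. The ratio of Psmb10 to Psmb7 was higher by 0.078 ± 0.094 and did not pass (exact permutation p = 0.451), with 9 of 13 animals above the 3-month mean. The intended partner of Psmb9 was not measured, so Psmb9 was set against the other catalytic genes, a choice made after that gap was seen. Its ratio was higher by 0.78 ± 0.13 to Psmb5 and by 0.77 ± 0.14 to Psmb7 (exact permutation, adjusted p = 1.6e-05 and 3.2e-05). These ratios rest on the same 3-month signals of Psmb9, most of them under 100. Psmb9 had already been called, and Psmb5 and Psmb7 differed by only −0.075 and −0.067. The outcome was therefore largely fixed in advance and adds no separate support. The adjustment over 4 pairs took in these unplanned pairs, which made the adjusted p of Psmb8 to Psmb5 smaller than over the planned pairs alone. For both ratios of Psmb9 each of the 13 oldest animals exceeded the 3-month mean. The ratio of Psmb8 also rests on low signals, with 4 of 9 under 100 at 3 months. A ratio within an array shows that the 2 signals changed unequally and says nothing on the amounts of the transcripts. The microglial markers listed above rose over the same ages.

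**Figure D5:**
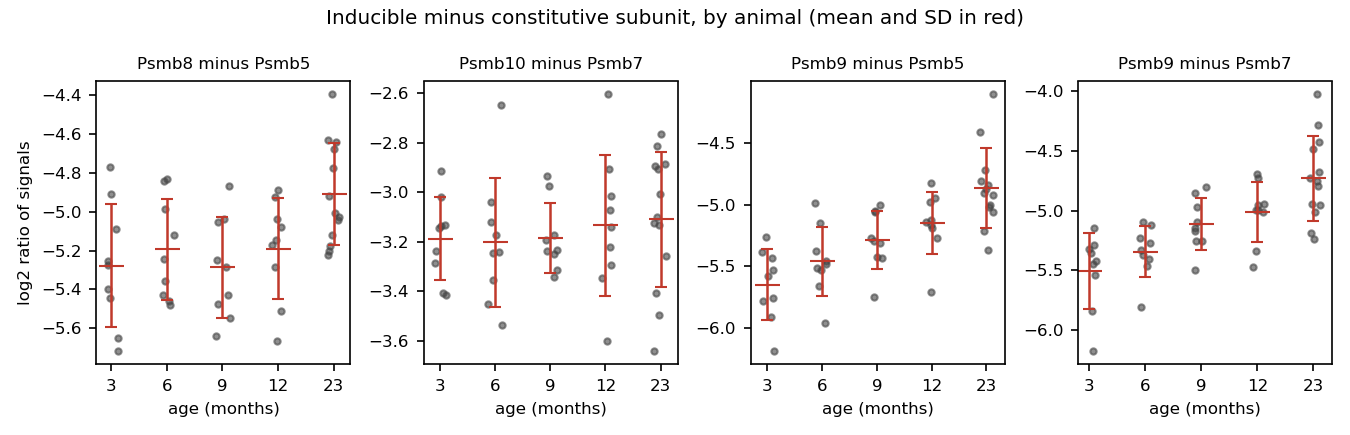
Log2 ratio of the signal of an inducible to a constitutive proteasome gene in every animal (vertical axis) by age in months (horizontal axis, ages evenly spaced), with the mean and SD of each age in red. The ratio of Psmb9 to Psmb5 had a mean of −5.65 at 3 months and −4.87 at 23 months, while that of Psmb10 to Psmb7 had −3.19 and −3.11.

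Other genes of the pathway, from lists drawn up by function, were mostly not called. Of all genes tested, 3.26% were called at 23 against 3 months and 2.41% were called higher. Among 4 measured activators and inhibitors of the proteasome 1 rose at 23 against 3 months, Psme1, a subunit of the activator that serves the immunoproteasome. Its signal was 733, 789 and 894 at 3 months and 847, 1006 and 1160 at 23 months (1.23-fold, adjusted p = 0.0013, 13 of 13 old animals above the 3-month mean). Its partner gene Psme2 was 1.12-fold higher without passing (adjusted p = 0.075, and 0.0096 for its line in months), and Psmf1, an inhibitor, had a log2 difference of −0.056. Of 11 subunits, assembly factors and regulators outside the name rule 1 rose, the transcription factor gene Nfe2l2, from 322 ± 25.3 (SD, n = 9) to 391.6 ± 38.9 (SD, n = 13, adjusted p = 0.0036). Nfe2l1, the activator of subunit genes, went from 992 ± 91.7 to 1104 ± 98.2 and did not pass (adjusted p = 0.116). The ubiquitin receptor gene Adrm1 differed by 0.18 on the log2 scale (adjusted p = 0.414).

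Of 4 measured genes that activate ubiquitin or ubiquitin-like proteins (Uba1, Uba2, Uba3 and Uba6) 0 were called in limma, and 0 had an unadjusted p under 0.05. Uba3, which activates the ubiquitin-like protein Nedd8, had a log2 difference of −0.058, and Uba6, an alternative ubiquitin-activating enzyme, one of 0.067. Among 9 measured genes that deliver substrates to the proteasome or remove ubiquitin, 0 were called in limma and 0 had an unadjusted p under 0.05. Over all genes tested these shares were 3.26% and 14.4%, and lists of 4 and 9 genes are too short to tell 0 from them. Ufd1 and Nploc4, cofactors of the unfolding ATPase Vcp, had log2 differences of −0.058 and −0.082. The median log2 difference at 23 against 3 months was −0.012 over these 4 activation genes and −0.034 over these 9, beside −0.038 over the 31 members.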

How the data were processed

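RNA of 49 animals was measured on 49 arrays. The deposited values are linear intensities that the authors computed with the MAS5 algorithm (version not given in the sources used here) and scaled to a target of 500, per the series' design text; the array means after trimming 2% at each end were 499.8. Array medians lay between 208 and 224.9. The precision is limited by the number of arrays.

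Of 15923 probe sets, 12789 had 1 gene symbol in the platform annotation, 312 had several and 2822 were not listed. Of the 15923, 57 were controls, and without controls 12783 probe sets with 1 symbol remained. Entrez IDs gave current symbols from RefSeq's GRCr8 gene table (12748 of 12783 matched), which left 10411 genes. Each gene was represented by its brightest probe set, and 8093 genes with a signal of 100 on at least 5 arrays were tested. Signals under 16 were set to 16, which touched 0 values of the 31 members, and log2 was taken. Tests were made with limma 3.58.1 in R 4.3.3 (variance trend, a mean per age, all 49 arrays, Benjamini-Hochberg over all genes), and the line in months was a separate limma fit. Ratios were tested in Python 3.11.15. The limma step and the permutation test were tested on simulated data. Across 1176 pairs of arrays, log2 signals differed with an SD of 0.24 or more, so no array held a copy of another's values. A second array of the same RNA is not excluded by this. Of 31 members, 29 had a promoter in the RefSeq table, 28 of them subunit genes.

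The members and lists were chosen with earlier results of these data known. Values by animal were given for genes called, for the catalytic subunits and for the 2 genes of largest moderated t at 23 against 3 months in each role group. From each other list the genes called and at most 2 others of smallest p were named. Further values of Psma3, Psmd2, Psmd10 and Psmd13 were added after they were seen. Alternatives covered the floor, filter, normalization, probe sets, variance model, array weights, replicate number, ages in the fit and arrays left out.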

Additional observations from a re-analysis of the deposited data

Results flagged for a closer look

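Among 124 groups of 9 animals, each for a member and an age, 11 had an extreme animal whose gap to its nearest neighbour was large for the group's range, and chance flags about 1 in 20 groups. Psmd2 accounted for 3 of them, with a highest signal of 2904 in 6 months replicate 5 (next 2091), 2333 in 9 months replicate 4 (next 2054) and 3393 in 12 months replicate 5 (next 2220). That last animal also held the extreme of Psmb7, at 4579 (next 3771). Psma3 was low in 3 months replicate 4, at 665 (next 929), an array of high transthyretin signal that was also lowest for Psmd11, at 1235 (next 1418). Psma3 was high in 6 months replicate 3, at 1417 (next 1039), and Psma7 in 12 months replicate 8, at 2276 (next 2135). Psmb2 was low in 6 months replicate 6, at 1598 (next 2133), and Psmd5 in 12 months replicate 3, at 355.5 (next 512). Psmd10 was high in 3 months replicate 2, at 1266 (next 877), the animal of highest Psmd8. The 11 extremes lay on 9 arrays, with at most 2 on any of them.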

How the results depend on the processing

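The count of subunit genes called was 0 in the F-test and in the contrasts of 12, 9 and 6 against 3 and of 23 against 12 months under each of the 12 alternative settings run for it and with each array left out. At 23 against 3 months it was 0 under its 12 settings and 0 to 1 with an array left out, the 1 being Psmd8. For the line in months it was 1 with every array left out and in 11 of 12 settings, and 0 with the replicate number of the labels as a block (Psmd8 adjusted p = 0.064, with a log2 change over 20 months of −0.16). The fit with this block makes no use of the 23-month animals whose number occurs at no other age. The labels do not say what a number shares, and the correlations of same-number residuals across ages, −0.13 to 0.36 (median 0.055, against −0.0097 for other numbers), did not meet the bar set for a pairing, above 0.1 in every pair. Yet 17 of 49 arrays were most like an array of their own number, where the numbers of arrays alone would give 4.39, a hint from the data that arrays of a number share something. The block changed no other call among the members. The 8 genes given by animal kept their direction at 23 against 3 months under each of the 11 settings run. Several of these settings, such as the filter and the variance model, cannot move a difference. Most of the 8 genes were also picked by this same contrast, so the kept direction was largely fixed in advance. The ratio of Psmb8 to Psmb5 stayed past the threshold under the 4 settings run (0.32 to 0.45). Of these, the floor of 64 and the mean of all probe sets left it unchanged at 0.37. Both ratios of Psmb9, chosen after the data were seen, also stayed past the threshold. Each of these ratios stayed with any array of 3 or 23 months left out. A fit with the replicate number as a block was not run for the ratios. The test of Psmb9 without the filter and with the higher floor was added after the data were seen.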
